A study of Mus musculus with 3 samples.

Results

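The binding of an acidic patch mutant of H2A.Z was compared with that of wild-type H2A.Z gene by gene in mouse embryonic stem cells (ESCs). All 22342 protein-coding genes of the GENCODE vM1 annotation (assembly mm9) were taken, with the most upstream annotated start of each gene, and the bases within 2 kb of that start that lay in a called ChIP-Seq region were counted in each library. A gene with at least 1 such base in the H2A.Z WT library is called a WT gene here, and a WT gene is said to keep the call when the H2A.Z AP3 library also had at least 1 base there. The AP3 bases need not overlap the WT bases. The 22342 genes were all genes considered, and 13163 of them were WT genes (58.9%), whereas 4649 had an AP3 call (20.8%). Chromosomes 6 and 8, where the mutant was called more widely than elsewhere, are given apart, which leaves 20089 genes on the other chromosomes and 2253 on chromosomes 6 and 8.

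The SRCAP and p400/Tip60 remodelling complexes exchange H2A for the histone variant H2A.Z, which flanks the transcription start of active genes and of silent developmental genes poised by Polycomb. The acidic patch is a cluster of acidic residues on the nucleosome surface to which the H4 tail and many chromatin proteins bind. H2A.Z extends this patch relative to H2A. The AP3 mutant carries the substitutions G92N, D97N and S98K (H2A.Z residue first), which put H2A residues into the patch. In ESCs, genes for lineage regulators such as Hox, Sox and T-box factors are largely silent and carry H3K27me3, the Polycomb mark.

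The methods name KH2 ESCs as the parent of the transgenic lines, one expressing H2A.Z WT and one H2A.Z AP3, whereas the strain label of both reads V6.5, a 129SvJae by C57BL/6 hybrid. In both lines, a drug-inducible lentiviral transgene encoding the histone with a C-terminal YFP tag was switched on with 1 µg/ml doxycycline, YFP-positive cells were sorted, and endogenous H2A.Z was depleted with hairpins against its 3′ untranslated region. Chromatin from both was precipitated with an anti-GFP antibody (Abcam Ab290), so that the tagged protein alone was scored, and the cells had been grown off feeder fibroblasts for the last passage. A further library, of genotype WT, was made with an antibody against H3K27me3 and serves here to describe the genes. No doxycycline treatment is recorded for it, so it is not shown to come from the induced H2A.Z WT line. There was 1 library in each group, so no difference between WT and AP3 has a replicate check, and no test between them is given. The lists hold coordinates of enriched regions and no reads, and the depth of either library is unknown. The intervals below are 95% Wilson intervals, which cover counting error over genes only and treat genes as independent, although neighbours can share a region. A gene without a call is not shown to lack the protein.

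The stretches of DNA at the extremes show where in a gene the calls lay. The sequences below are the 30 central bases of the longest region of the library named, on the strand of the gene from 5′ to 3′ (mm9), with CG dinucleotides in capitals. CG density is printed because H2A.Z sits largely at CpG-rich starts. A pair of genes among those with the most AP3 bases off chromosomes 6 and 8 is given before the genes with the most WT bases and no AP3.
Gna14, AP3, chr19:16510823-16510852, plus strand, untranslated region: agcagcagcacCGaCGccccaacttttgat
Odf3b, AP3, chr15:89208448-89208477, minus strand, intron: gtgaCGttgggggtggtgcagaactccagg
Gm5105, WT, chr3:137732048-137732077, minus strand, coding exon of the neighbour 1110002E22Rik: gttctcaaaggcagcCGccCGggcagacac
Pgf, WT, chr12:86517836-86517865, minus strand, coding exon: ttggctgtgcattcccaggtaaggacctgg
Adm, WT, chr7:117771948-117771977, plus strand, intron: tgagagatggtctggaggtgttacaaaggg

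The AP3 region at Gna14, which encodes a G protein alpha subunit, held 5.24 CG per 100 bp, and that at Odf3b, a sperm tail protein, held 4.64. The WT regions without AP3 held 2.63 CG per 100 bp near Gm5105, 2.19 at Pgf and 4.11 at Adm. Pgf encodes placental growth factor and Adm the vasodilator peptide adrenomedullin. These regions were picked for their coverage, and their CG content is a description of 5 regions.

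Off chromosomes 6 and 8, the AP3 call was kept at 3398 of 11573 WT genes, which is 29.4% (28.5 to 30.2). Within these windows the AP3 regions covered 10.7% as many bases as the WT regions. A kept gene had few AP3 bases: the median was 175 and the quartiles were 100 and 325. At only 213 of the kept genes did AP3 cover at least as many bases as WT. The AP3 bases lay for the most part inside WT regions (82.6%), and 258 genes had AP3 but no WT. On chromosomes 6 and 8 the call was kept at 952 of 1590 WT genes, or 59.9% (57.4 to 62.3), and AP3 covered 34.3% as many bases as WT, with a median of 425 AP3 bases at kept genes.

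Chromosomes 6 and 8 stood apart along their whole length. The kept share was 59.9% on chromosome 6 and 59.8% on chromosome 8, against 25.8% to 34.8% on the 17 other autosomes and 14.5% (11 to 19) on the X. In segments of 20 Mb the share on chromosomes 6 and 8 was between 45.5% and 72.9% in all 15 segments, and the 114 segments of the other autosomes with at least 20 WT genes lay between 13.9% and 45.3%. WT calls were themselves denser there, with 70.6% of genes called and a median of 825 WT bases at WT genes, against 57.6% and 575 bases elsewhere.

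**Figure D1:**
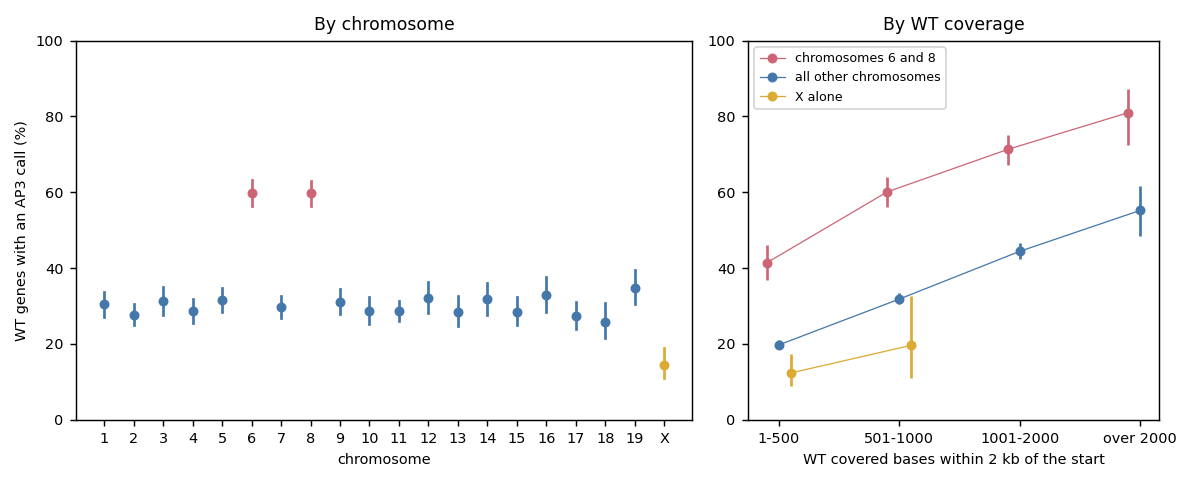
Left, the percentage of WT genes with an AP3 call on each chromosome; right, the same percentage in 4 strata of WT covered bases. Points are shares and lines are 95% Wilson intervals. Chromosomes 6 and 8 lie near 60% (59.9% and 59.8%), the other autosomes between 25.8% and 34.8% and the X at 14.5%, and the share rises with WT coverage in each set; strata of the X with fewer than 10 genes are not drawn.

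The length of WT coverage at a gene went with whether the mutant was called. Off chromosomes 6 and 8 the kept share was 19.7% for WT genes with up to 500 WT bases, 31.8% from 501 to 1000, 44.4% from 1001 to 2000 and 55.2% above 2000. The shares in the same strata on chromosomes 6 and 8 were 41.4%, 60.1%, 71.3% and 81.0%. The higher share on these chromosomes was thus present at each level of WT coverage. The X chromosome was lower within strata too, with 12.3% (8.73 to 17.2) up to 500 bases and 19.6% (11 to 32.5) from 501 to 1000. The labels give the V6.5 cells as male. Gene classes differ in WT coverage, so their shares are to be read against the stratum of their median.

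Genes were sorted into 56 functional classes by symbol, in 5 groups, which together held 4832 genes and 2390 WT genes. Off chromosomes 6 and 8, 49 classes had at least 10 WT genes. For 43 of these the interval of the kept share held the 29.4% of all WT genes. The interval lay above it for T-box, Sox and basic helix-loop-helix (bHLH) genes and below it for clustered protocadherins, olfactory receptors and replication-dependent histones. The intervals were not widened for the number of classes. Most functional classes thus kept the mutant call at a rate that could not be told from that of all WT genes, with WT coverage not taken into account. Classes with few WT genes have wide intervals, so a difference there could be missed.

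**Figure D2:**
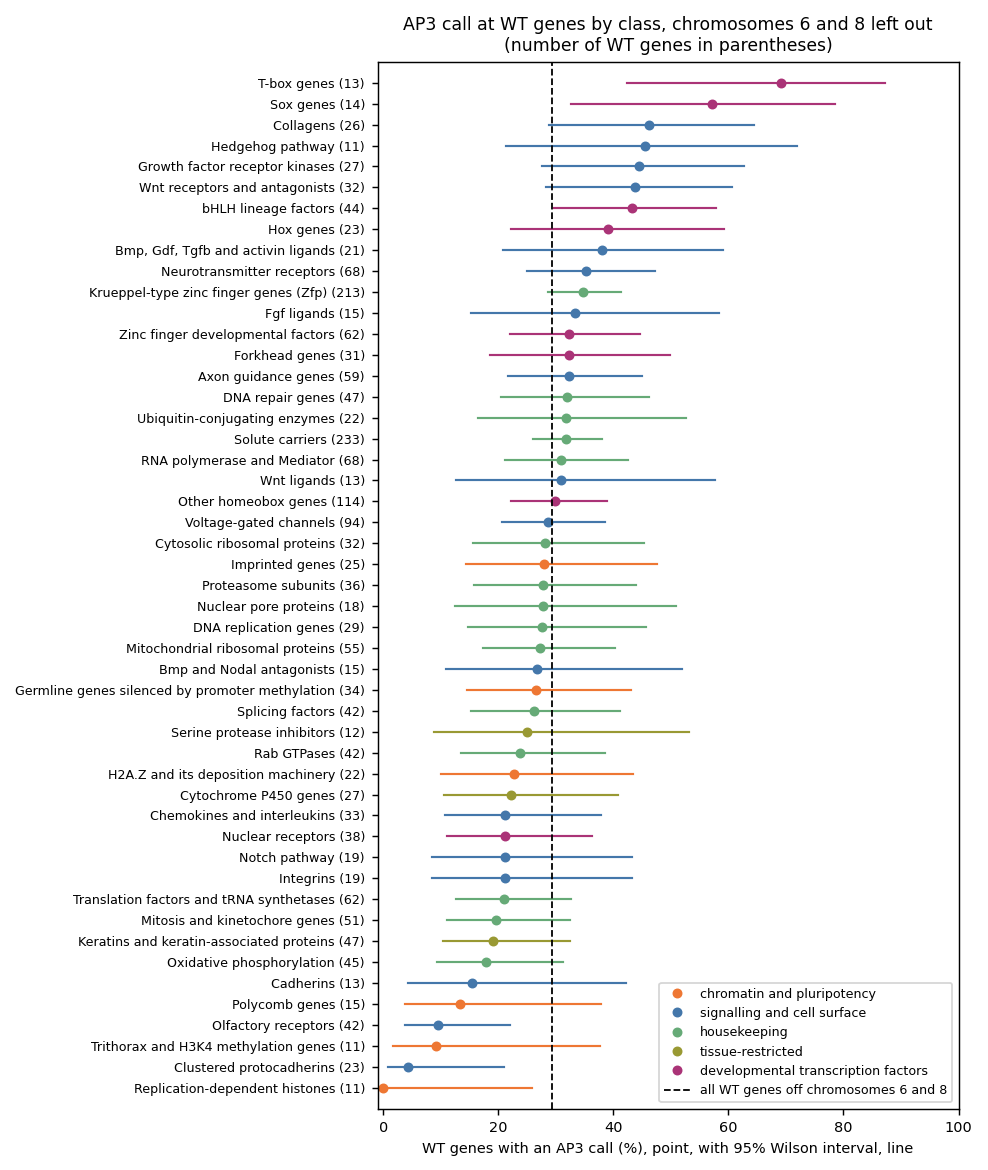
Percentage of WT genes with an AP3 call in the 49 classes with at least 10 WT genes off chromosomes 6 and 8, sorted by the percentage; points are shares, lines 95% Wilson intervals, colours the 5 gene groups, and the dashed line the 29.4% of all WT genes. T-box genes are at the top with 69.2% and replication-dependent histones at the bottom with 0 of 11 genes, and 43 intervals cross the dashed line.

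Among developmental transcription factors, 351 of 399 genes off chromosomes 6 and 8 were WT genes, 79.5% of those carried H3K27me3, and 120 kept the AP3 call (34.2%, 29.4 to 39.3). Their WT coverage was broad, with a median of 875 bases. In strata of WT coverage the kept share was 13.2% (7.71 to 21.6) up to 500 bases, 29.1% (21.2 to 38.5) from 501 to 1000 and 48.6% (40.4 to 56.8) from 1001 to 2000, against 19.7%, 31.8% and 44.4% for all WT genes. Each of these intervals held the value of all WT genes, so that at like WT coverage no difference could be told, and AP3 covered 8.18% as many bases as WT in them, below the 10.7% of all genes. The genes of the group that kept the call had a median of 66 CG dinucleotides within 500 bp of the start, and those that lost it 56. Over all WT genes off chromosomes 6 and 8 these medians were 59 and 56.

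T-box genes encode transcription factors of mesoderm, limb, heart and cortex, and none of them lies on chromosome 6 or 8. All their values are given, and the Hox, Sox, Gata and Wnt genes below are described member by member, a choice made after the values were seen. Of 17 T-box genes 13 were WT genes, and 9 of those kept the call (69.2%, 42.4 to 87.3). Most AP3 bases lay at Tbr1, a regulator of cortical neurons, with 650 AP3 against 775 WT bases. Tbx4, which acts in hindlimb and lung, had 625 against 1299, and Tbx10 had 475 against 1400. Tbx1, a gene of the pharyngeal apparatus, had 300 against 1876.
Eomes, which specifies mesendoderm and trophoblast, and Tbx21, which directs type 1 helper T cells, had 175 AP3 bases each, against 1425 and 750 WT bases. The remaining kept members had short calls, with 75 AP3 bases at Tbx18 and 25 each at Tbx5 and Tbx15. The call was lost at T, the brachyury gene of the primitive streak, with 1550 WT bases, and at the heart gene Tbx20 with 1075. It was also lost at Tbx2 (550 WT bases) and Tbx3 (248). Tbx6, Tbx19, Tbx22 and Mga had no call in either library. The kept members thus ranged from 25 to 650 AP3 bases. Of the 7 T-box WT genes with 1001 to 2000 WT bases 5 kept the call (35.9 to 91.8), an interval that held the 44.4% of all WT genes in that stratum, so that at like coverage the class was not told apart. The T-box interval stayed above that of all WT genes under 7 of 9 alternative settings, but not with the 1e-12 lists, where 5 of 13 WT genes kept the call.

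Central bases of the longest AP3 region of the 3 T-box genes with the most AP3, and of the longest WT region of the pair with the most WT and no AP3, are shown to set the contexts side by side, with CG in capitals.
Tbr1, AP3, chr2:61643261-61643290, plus strand, coding exon: CGcagggctaccccaCGgcCGgctacccct
Tbx4, AP3, chr11:85699323-85699352, plus strand, 586 bp upstream of the start: ccttgcactcccctgccatggactcatagg
Tbx10, AP3, chr19:3992373-3992402, plus strand, 364 bp upstream of the start: tactaaagcactggactggcaggagaatct
T, WT, chr17:8627798-8627827, plus strand, untranslated region: agggttcctaggtgtatactggaatgacca
Tbx20, WT, chr9:24578623-24578652, minus strand, untranslated region: aCGcCGatCGtcacctcctCGgacttgggc

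The Tbr1 region held 5.85 CG per 100 bp, but those at Tbx4 and Tbx10 held 2.35 and 1.05 and lay before the start. The WT regions without AP3 held 4.88 CG per 100 bp at T and 6.05 at Tbx20. Among these 5 regions the kept ones were thus not the CG-richer ones.

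Sox genes encode HMG-box factors of neural, endodermal, chondrocyte and germ cell fates. Off chromosomes 6 and 8, 8 of 14 WT members kept the call (57.1%, 32.6 to 78.6). Sox18, which acts in endothelium, had 775 AP3 against 1850 WT bases, and Sox10, of the neural crest, had 595 against 1395. Sox14 had 500 against 1150, Sox7 350 against 625, Sox6 250 against 1375 and Sox21 175 against 2125. The calls at Sox9, a cartilage and testis gene, and at Sox4 were short, with 50 and 25 AP3 bases.
AP3 was not called at Sox8 (1900 WT bases), Sox11 (1700), Sox13 (1200), the endoderm gene Sox17 (1150), Sox30 (700) and Sox3 (650). Sox5 on chromosome 6 kept it with 300 AP3 bases. Sox2, which maintains pluripotency, had no call in either library, nor had Sox12, Sox15 and a further gene model named Sox4. Related genes of like WT coverage, such as Sox18 and Sox8, thus fell on opposite sides of the call. With the 1e-12 lists 4 of 14 WT members kept it, an interval that held the share of all WT genes. Of the 9 with 1001 to 2000 WT bases 5 kept it (26.7 to 81.1), which held the 44.4% of all WT genes at that coverage too.

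The bHLH class, which holds proneural, myogenic and Id genes, kept the call at 19 of 44 WT genes (43.2%, 29.7 to 57.8). Olig3, of the dorsal neural tube, had 975 AP3 bases, Hand1, of heart and trophoblast, 575 against 2200, and Id4 375 against 1600. Bhlhe23 and the Notch target Hes5 had no AP3 despite 2550 and 2250 WT bases. All 5 WT genes of the class with up to 500 WT bases lost the call, and 13 of the 20 with 1001 to 2000 bases kept it (43.3 to 81.9), an interval that held the 44.4% of all WT genes there. The interval stayed above that of all WT genes under 5 of 9 alternatives.

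Hox genes pattern the body axis and stand in 4 clusters, of which Hoxa lies on chromosome 6. All 35 Hox WT genes carried H3K27me3. The call was kept at 10 of 12 Hoxa gene models (83.3%, 55.2 to 95.3), against 4 of 7 Hoxb, 1 of 7 Hoxc and 4 of 9 Hoxd WT genes. AP3 covered 28.7% as many bases as WT over Hoxa, 8.34% over Hoxb, 0.543% over Hoxc and 12.7% over Hoxd. The Hoxa cluster thus stood with its chromosome.
Hoxa3, annotated as 2 gene models, had 1550 and 1388 AP3 bases against 2325 and 2063 WT bases. Hoxa7 had 550 AP3 bases, Hoxa4 450, Hoxa5 261, Hoxa10 200, Hoxa11 125, Hoxa2 100 and Hoxa9 50. Hoxa6 and Hoxa13 lost the call, with 1325 and 974 WT bases. Adjacent Hoxa genes thus ranged from none to over 1000 AP3 bases.
Elsewhere the longest AP3 calls of a Hox gene were 325 bases at Hoxd9, 250 at Hoxb13 and 200 at Hoxb4 and at Hoxd4. Hoxd1 and Hoxd11 had 125 each, and Hoxb2, Hoxb5 and Hoxc5 had 25 each. Hoxc10 and Hoxd12 had the most WT bases without AP3, 1125 each.

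The other homeobox genes were the largest developmental class, and 34 of 114 WT genes off chromosomes 6 and 8 kept the call (29.8%, 22.2 to 38.8). AP3 covered 6.56% as many bases as WT in them. The median WT coverage of the class was 938 bases. From 501 to 1000 WT bases 6 of 38 kept the call (15.8%, 7.44 to 30.4), below the 31.8% of all WT genes in that stratum. The intervals of the other strata held the values of all WT genes. Msx3 had 725 against 2300 and Dlx3 625 against 1950. Onecut1, of liver and pancreas, lost the call with 2178 WT bases.
Of the 14 homeobox WT genes on chromosomes 6 and 8, 12 kept it, led by Noto, a notochord gene with 1275 AP3 against 1325 WT bases, and Emx1, of the forebrain, with 1200 against 2575. Of the Pax genes 3 of 8 kept the call, but Pax9 had 250 AP3 bases, the eye gene Pax6 200 of 2448 WT, and Pax8 25. Pax3 and Pax5 lost it.
Forkhead genes kept the call at 10 of 31 WT genes, with 1050 AP3 bases at Foxd4 and 600 at Foxc1, and Foxs1 lost it with 2175 WT bases. None of the 4 Gata WT genes off chromosomes 6 and 8 had AP3, a share for which the interval reaches up to 49.0%. Gata5 had 1575 WT bases, Gata6 1500, Gata3 675 and Gata4 25, while Gata2 on chromosome 6 had 200 AP3 of 1500 WT bases. Nuclear receptors kept the call at 8 of 38 WT genes (21.1%, 11.1 to 36.3), with 700 AP3 bases at the photoreceptor gene Nr2e3 and none at Nr0b2, which had 1650 WT bases.

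**Figure D3:**
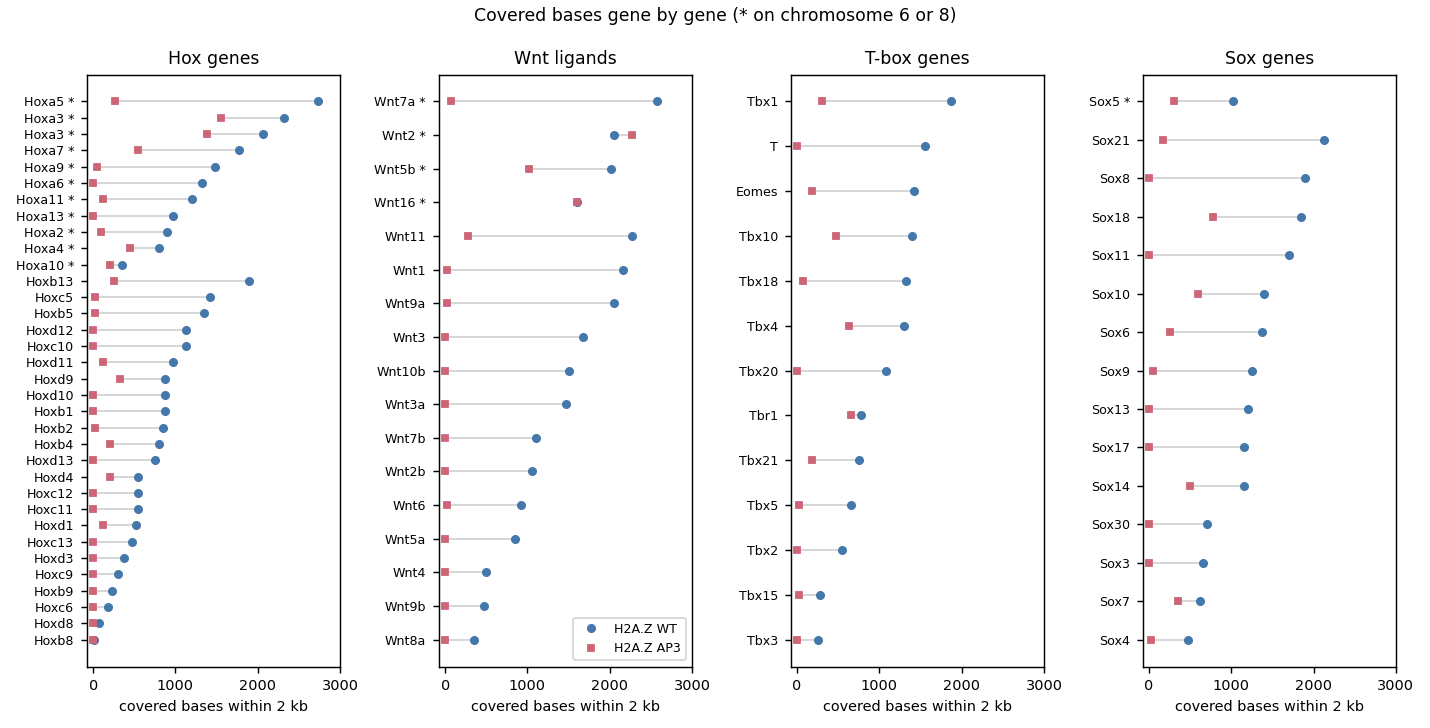
Covered bases within 2 kb of the start for the Hox, Wnt, T-box and Sox genes with a call, a few members not reported here left out, in H2A.Z WT (circles) and H2A.Z AP3 (squares), 1 library each; genes with an asterisk lie on chromosome 6 or 8. AP3 lies left of WT at nearly every gene, Wnt2 has 2275 AP3 against 2050 WT bases, and the asterisked Hoxa and Wnt genes include the longest AP3 coverage of their classes.

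Signalling and cell surface genes kept the call at 156 of 531 WT genes off chromosomes 6 and 8 (29.4%, 25.7 to 33.4), and AP3 covered 8.49% as many bases as WT. Their median WT coverage was 800 bases. From 501 to 1000 WT bases the share was 21.5% (16.1 to 28.1), below the 31.8% of all WT genes in that stratum. The intervals of the other strata held the values of all WT genes. Kept members had a median of 59.5 CG within 500 bp of the start and lost members 45. Wnt ligands, secreted signals of axis formation, differed widely between chromosomes. Of 13 Wnt genes with WT off chromosomes 6 and 8, 4 kept the call, and their AP3 coverage was 2.14% of the WT coverage: Wnt11 had 275 AP3 bases, and Wnt1, Wnt9a and Wnt6 had 25 each against 2163, 2050 and 925 WT bases.
Wnt3 (1675 WT bases), Wnt10b (1500), Wnt3a (1475), Wnt7b (1100), Wnt2b (1050), Wnt5a (850), Wnt4 (500), Wnt9b (475) and Wnt8a (350) had no AP3. All 4 Wnt genes on chromosome 6 kept it, with 2275 AP3 bases at Wnt2, 1600 at Wnt16 and 75 at Wnt7a, against 2050, 1600 and 2575 WT bases, and Wnt5b, with 2015 WT bases, was the other. Coverage at Wnt2 and Wnt16 was as long in the mutant as in the wild type in these lists, but not in the 1e-12 lists, with 1325 AP3 against 1975 WT bases at Wnt2 and 700 against 1550 at Wnt16.
The receptors and antagonists of the pathway kept the call off chromosomes 6 and 8 at 14 of 32 WT genes (43.8%, 28.2 to 60.7). This interval held the share of all WT genes and overlapped that of the ligands (12.7 to 57.6). The receptor gene Fzd8 had 825 AP3 bases, and the antagonists Sfrp4 and Wif1 had 800 and 700. Ror2 and Fzd2 lost the call with 1925 and 1825 WT bases.

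AP3 covered 7.33% as many bases as WT in Bmp, Gdf, Tgfb and activin ligands, 5.19% in Fgf ligands, 5.00% in Notch and 12.2% in Hedgehog pathway genes. Bmp, Gdf, Tgfb and activin ligands kept the call at 8 of 21 WT genes off chromosomes 6 and 8, with 600 AP3 bases at Inha and 575 at Bmp8a. None of their 4 WT genes on chromosomes 6 and 8 kept it (Gdf1, Gdf15, Bmp10 and Gdf3, interval up to 49.0%). The median WT coverage of these 4 was 462 bases, and that of the 4 Wnt genes there 2032. Fgf ligands kept it at 5 of 15 WT genes, with 250 AP3 bases at Fgf3, and lost it at Fgf8 and Fgf15 with 1500 WT bases each. The Hedgehog class kept it at 5 of 11, with 500 AP3 bases at the ligand gene Ihh, and the Notch class at 4 of 19, with 350 bases at the ligand gene Dll1.
Growth factor receptor kinases kept it at 12 of 27 (44.4%, 27.6 to 62.7), led by Mertk with 875 AP3 bases, Mst1r with 775 and the epidermal growth factor receptor Egfr with 700. The receptor genes Kdr and Erbb3 lost it with 1600 and 1575 WT bases. On chromosome 8, Fgfr1 had 1450 AP3 against 1350 WT bases, and 1075 against 1225 in the 1e-12 lists.
Axon guidance genes kept the call at 19 of 59 WT genes and voltage-gated channels at 27 of 94. Efna1, an ephrin ligand, had 1000 AP3 bases, and the potassium channel gene Kcnc2 had 850. Collagens kept it at 12 of 26 (46.2%, 28.8 to 64.5), with 550 AP3 bases at Col27a1, and the head-to-head pair Col4a1 and Col4a2 on chromosome 8 shared 1425 AP3 bases.

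Several classes lay at the low end. Clustered protocadherins, whose isoform choice gives neurons a surface identity, are on chromosome 18. Of 23 WT genes 1 kept the call (4.35%, 0.772 to 21.0), with 34 AP3 bases at Pcdhb9. Pcdha3 and Pcdhb1 had 1026 and 925 WT bases and no AP3. Of their members 7 had up to 500 WT bases and none of these kept AP3, and 1 of the 15 members with 501 to 1000 WT bases had AP3, against 31.8% of all WT genes in that stratum. These genes are neighbours in clusters on 1 chromosome.
Olfactory receptors, silent outside the nose, were rarely WT genes: 42 of 1055 off chromosomes 6 and 8 had a WT call, and 4 of these kept AP3 (9.52%, 3.77 to 22.1). Their median WT coverage was 400 bases, and the interval held the 19.7% of all WT genes with up to 500 bases. Olfr222 had 550 AP3 against 1125 WT bases, and neighbours Olfr287 and Olfr288 had the same 150 AP3 bases. Replication-dependent histone genes had a WT call at 11 of 66 genes and no AP3 in any of these (interval up to 25.9%). Their median was 325 WT bases, and this interval held the same 19.7%. Hist1h2aa and Hist1h2ba, testis histone genes that share a promoter, had 1000 WT bases each, so the 11 genes are fewer independent loci.
Keratins kept the call at 9 of 47 WT genes (19.1%, 10.4 to 32.5), with no more than 250 AP3 bases (at Krt19). Among cytochrome P450 genes, 6 of 27 kept it (22.2%, 10.6 to 40.8), and Cyp1b1 had 1150 AP3 bases and the retinoic acid hydroxylase gene Cyp26a1 850. The intervals of keratins and P450 genes held the 29.4% of all WT genes. Their median WT coverage was 425 and 500 bases, and both intervals held the 19.7% of all WT genes with up to 500 bases.

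Housekeeping genes, a group that here also holds Zfp zinc fingers, solute carriers and Rab GTPases, kept the call at 291 of 1001 WT genes off chromosomes 6 and 8 (29.1%, 26.3 to 32.0). Their WT coverage was narrower, with a median of 500 bases, 12.6% carried H3K27me3, and AP3 covered 12% as many bases as WT. In strata the share was 23.2%, with a lower bound of 19.8%, up to 500 bases, 33.1% (28.4 to 38.1) from 501 to 1000 and 42.7% (33.9 to 52.1) from 1001 to 2000, against 19.7%, 31.8% and 44.4% of all WT genes. The lowest stratum was thus barely above that of all WT genes.
Krueppel-type Zfp genes, mostly repressors of retroelements, kept it at 74 of 213 WT genes (34.7%, 28.7 to 41.4) with 16.1% as many AP3 as WT bases, led by Zfp697 (1050 AP3 bases). Zfp457 and Zfp940 had 775 AP3 against 475 WT bases each. Solute carriers kept it at 74 of 233 (31.8%), led by Slc7a4 with 1475 AP3 bases and the sugar transporter gene Slc50a1 with 1225, and Slc43a2 lost it with 2275 WT bases.
Cytosolic ribosomal protein genes had a WT call at 32 of 77 genes, and 9 of these kept it (28.1%). Rps3a had 350 AP3 against 75 WT bases, with no base in both. Rpl29 had 250 against 175, while Rpl7 had 425 against 650. Mitochondrial ribosomal proteins kept it at 15 of 55, proteasome subunits at 10 of 36, DNA repair genes at 15 of 47 and RNA polymerase and Mediator genes at 21 of 68. These shares lay between 27.3% and 31.9%.
Oxidative phosphorylation genes kept it at 8 of 45 (17.8%, 9.29 to 31.3) and mitosis genes at 10 of 51 (19.6%, 11 to 32.5). In mitosis genes 21.7% of the AP3 bases lay inside WT regions, against 82.6% over all WT genes off chromosomes 6 and 8. Bub1b, a spindle checkpoint kinase gene, had 450 AP3 against 400 WT bases (300 against 350 in the 1e-12 lists), and the mitotic kinase gene Plk1 lost the call with 1200 WT bases. Both intervals held the share of all WT genes.

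Chromatin and pluripotency genes as a group kept the call at 26 of 128 WT genes off chromosomes 6 and 8 (20.3%, 14.3 to 28.1), below all WT genes. The share was 19.7% up to 500 WT bases, as for all WT genes. From 501 to 1000 it was 13.3% (6.26 to 26.2), below the 31.8% of all WT genes in that stratum. With genes that have another start within 4 kb left out, the share of the whole group was 25.2% (17.8 to 34.4). This interval held the share of all such WT genes, 29.0%. Histone genes are prominent among those left out, since 2 of their 11 WT genes remain.
The genes of the H2A.Z deposition machinery kept it at 5 of 22 WT genes off chromosomes 6 and 8, with short AP3 calls: 200 bases at Morf4l1, 175 at the H2A.Z chaperone gene Anp32e, 150 at Actr8 and Ino80c and 100 at Epc2. Vps72, which encodes the H2A.Z-binding subunit YL1, Znhit1 and Trrap had 900, 850 and 775 WT bases and no AP3. Of the H2A.Z genes themselves, H2afz had 75 WT bases and no AP3 and H2afv had no call. All 4 machinery WT genes on chromosomes 6 and 8 kept the call: Cfdp1 had 1075 AP3 against 550 WT bases, Ino80b 925 against 375, Ing3 350 against 350 and Ruvbl1 200 against 400. Coverage in the mutant was at least as long as in the wild type at Cfdp1, Ino80b and Ing3, and in the 1e-12 lists no longer at Ing3 (150 against 275). Much of it lay at other places: over these 4 genes 32.4% of AP3 bases were inside WT regions, against 82.6% over all WT genes on chromosomes 6 and 8. Upstream of the start lay 53.9% of their AP3 bases but 2.39% of their WT bases.

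Polycomb genes kept the call at 2 of 15 WT genes off chromosomes 6 and 8 (13.3%, 3.74 to 37.9), namely Phf19 with 300 AP3 against 1775 WT bases and L3mbtl3 with 225 AP3 bases. Cbx6 had 1100 WT bases and no AP3, and Suz12 and Rnf2, of the PRC2 and PRC1 cores, had 425 and 225 and no AP3. On chromosome 6, Pcgf1 had 750 AP3 against 1550 WT bases and the methyltransferase gene Ezh2 325 against 1000. Among Trithorax genes 1 of 11 kept it (9.09%, 1.62 to 37.7), Ncoa6 with 200 AP3 bases. Kdm1a had 450 AP3 bases and no WT.
Core pluripotency genes were mostly outside the comparison. Pou5f1, Nanog, Sox2, Klf4 and Sall4 had no call in either library, and 8 of 25 genes off chromosomes 6 and 8 were WT genes. Lin28b, with 125 AP3 of 400 WT bases, was the member that kept it. Dnmt3l, Prdm14 and Nr0b1 lost it with 1550, 800 and 625 WT bases, and Klf2 on chromosome 8 and Zfp281 had 250 and 75 AP3 bases without WT. H2afy2, a macroH2A gene, had 425 AP3 of 1425 WT bases, and H1fx on chromosome 6 had 1500 of 2275.

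Gene groups on chromosomes 6 and 8 were compared with the 59.9% of all WT genes there. Developmental transcription factors kept the call at 43 of 55 WT genes (78.2%, 65.6 to 87.1), housekeeping genes at 89 of 139 (64.0%, 55.8 to 71.5), signalling genes at 47 of 78 (60.3%, 49.2 to 70.4) and chromatin and pluripotency genes at 19 of 28 (67.9%, 49.3 to 82.1). The developmental interval alone lay above that share, but its WT coverage was also wide, with a median of 1500 bases against 825. Between 1001 and 2000 WT bases it kept the call at 22 of 25 genes (88.0%), an interval that held the 71.3% of all WT genes there.
Long AP3 calls there also lay at housekeeping genes, with 1400 bases at the glucose transporter gene Slc2a3 and 1075 at the recombination gene Rad52.

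The place of AP3 around the start differed between gene groups. In all WT genes off chromosomes 6 and 8, AP3 covered 13% as many bases as WT upstream of the start and 9.43% downstream, so that 42.0% of AP3 bases but 34.4% of WT bases lay upstream. The upstream percentage was the higher on 16 of 17 autosomes. In housekeeping genes the values were 15.1% and 10.3%, with the upstream percentage higher on 14 of 17 autosomes. In developmental transcription factors they were 8.07% and 8.24%, and the upstream percentage was higher on 10 of 17. Over the whole housekeeping group AP3 thus lay further upstream than WT, but not in each class: DNA replication genes had 3.66% upstream and 14.4% downstream, Rab GTPases 9.61% and 12.4%, and solute carriers 12.3% and 11.7%. The values of both sides were near each other in developmental factors as a group. The upstream percentage over the downstream one was 1.41 to 1.76 in housekeeping genes and 0.778 to 1.13 in developmental factors over 8 alternative settings, and the difference between the groups was not tested.
A like split went with H3K27me3 off chromosomes 6 and 8. WT genes without the mark had 14.9% upstream and 8.88% downstream, in this order on 17 of 17 autosomes, and WT genes with it had 9.67% and 10.2%, with upstream higher on 6 of 17. Leaving out genes with the start of another protein-coding gene within 4 kb, on either strand, gave 16.9% and 8.35% without the mark and 9.22% and 10.1% with it. The order was thus the same when those genes were left out. On chromosomes 6 and 8 housekeeping genes had 44.3% upstream and 27.6% downstream, and developmental factors 19.5% and 30.1%. WT genes without the mark had 42.1% and 29.7% there. Those with it had 34.2% and 33.4%, near each other, so they did not share the lower upstream value of the developmental factors.

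**Figure D4:**
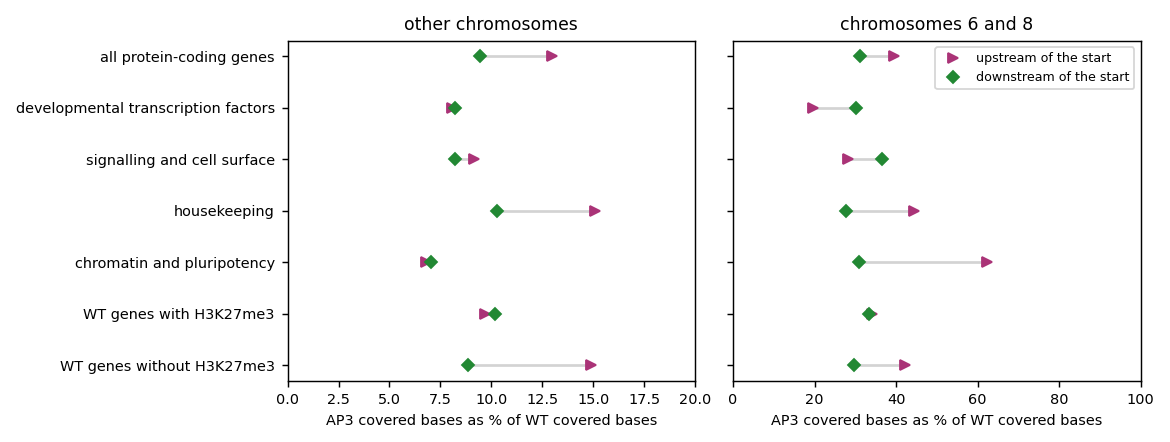
AP3 covered bases as a percentage of WT covered bases upstream (triangles) and downstream (diamonds) of the start, for WT genes of each group, off chromosomes 6 and 8 (left) and on them (right; the axes differ); the tissue-restricted group is left out for its 3 WT genes on chromosomes 6 and 8. Upstream exceeds downstream in housekeeping genes (15.1% against 10.3% at left) and in genes without H3K27me3 (14.9% against 8.88%), and not in developmental factors at right (19.5% against 30.1%).

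Along the gene, WT at housekeeping genes off chromosomes 6 and 8 formed a peak centred 175 bp after the start, where 67.2% of WT genes were covered. AP3 peaked at the same place with 7.75% and again 275 bp before the start with 5.71%. These flanks were 23.5% and 23.1% on chromosomes 6 and 8, while WT reached 75.8% after the start. At developmental factors WT was broader and peaked 475 bp after the start at 49.8%, and AP3 reached 4.91% after the start and 3.69% before it. AP3 at developmental factors on chromosomes 6 and 8 reached 30.3% after the start and 13.1% before it. The AP3 flanks were thus near in height at housekeeping genes on chromosomes 6 and 8, and off these chromosomes both groups were higher after the start.

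**Figure D5:**
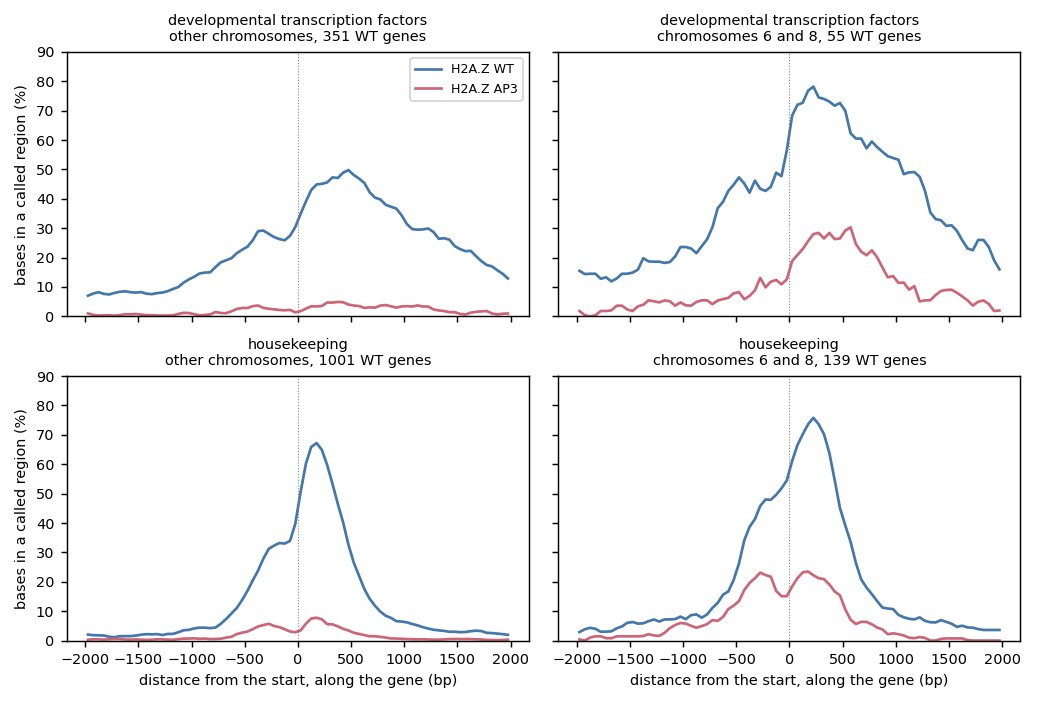
Percentage of WT genes whose bases lie in a called region, in steps of 50 bp from 2000 bp before to 2000 bp after the start along the gene, for the wild type and the mutant (1 library each). On chromosomes 6 and 8 housekeeping genes (bottom) have AP3 humps of like height on both sides of the start, 23.1% and 23.5%, whereas WT is higher after the start (75.8%), and developmental factors (top) have a broad WT and a low AP3 curve off chromosomes 6 and 8.

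The genes with most AP3 off chromosomes 6 and 8 were of varied function. Among them were Gna14 (1775 AP3 against 1750 WT bases) and the overlapping neighbours Odf3b (1716 against 2325) and Tymp (1654 against 1429). Klhdc7b had 1650, the adaptor gene Dok2 1636, the hepatocyte growth factor-like Mst1 1600, the lipoprotein lipase inhibitor gene Angptl4 1575, the apolipoprotein gene Apoa1 1500 and Slc7a4 1475. AP3 coverage was at least that of WT at Gna14, Tymp, Dok2, Angptl4 and Apoa1. In the 1e-12 lists this held at Angptl4 (1150 against 850) and turned at Gna14 (1075 against 1700), Tymp (0 against 1404), Dok2 (300 against 1061) and Apoa1 (900 against 1338).
Genes with much WT and no AP3, beside Gm5105, Pgf and Adm, included Grin2a, a glutamate receptor gene, with 3012 WT bases, Zmiz1 with 2985, the protocadherin gene Fat4 with 2925, Hsd17b1 with 2901, the transcription factor gene Sim2 with 2815, and Cldn3, of tight junctions, with 2700. Of the genes named in this list Pgf alone carried no H3K27me3. The mark was common at such coverage: 156 of the 212 WT genes off chromosomes 6 and 8 with over 2000 WT bases carried it. Of all WT genes there, 27.3% did.
AP3 without WT was long at Pcbd1 (875 bases), Cops6 (700), Ahnak2 (575, with 725 WT bases in the 1e-12 list) and Eif3g (500), none of which carried H3K27me3. The mark lay at 18 of the 258 genes off chromosomes 6 and 8 that had AP3 but no WT. This share was below that of WT genes. It was above that of genes with neither call, of which 209 of 8258 carried the mark. On chromosomes 6 and 8 the most AP3 lay at Gm16499 (3007), Podnl1 (2588), Hapln4 (2550), Ldhd (2452) and Wnt2 (2275), and the most WT without AP3 at Dok1 (3111), Lrtm2 and A230052G05Rik (3076 each), Loxl3 (2659) and F10 (2651), the last being the gene of coagulation factor X. Long WT coverage without a mutant call thus occurred on these chromosomes too.

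CpG density near the start went with both the WT call and the kept share. Off chromosomes 6 and 8, genes with up to 10 CG within 500 bp of the start had a WT call in 9.04% and those with 51 to 75 in 80.4%. Among WT genes the kept share was 14.5% (11.3 to 18.4) up to 10 CG, 20.5% (18.6 to 22.5) from 11 to 25, 32.2% from 26 to 50, 32.6% from 51 to 75, 31.2% from 76 to 100 and 26.9% (24.4 to 29.5) above 100. The share was thus lowest at CpG-poor starts and fell again at the CpG-richest. Median WT coverage rose and fell likewise, with 284, 425, 600, 650, 650 and 500 bases in these ranges. The share by CG was not taken within strata of WT coverage, so a link with CpG density apart from coverage was not tested. On chromosomes 6 and 8 it ran from 26.5% (17.4 to 38.0) up to 10 CG to 65.7% (61.3 to 69.8) from 51 to 75.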

How the data were processed

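The deposited lists give only chromosome, start and end of enriched regions, here the unit being coordinates rather than a score or count. Per the paper and labels, the authors sequenced ChIP DNA on a Genome Analyzer II, aligned single-end reads to mm9 with Bowtie 0.12.3, extended them, counted them in bins of 25 bp, and called bins at a Poisson P of 1e-09 with enrichment over input. The 1e-12 lists are described by name alone, and bedtools is listed without a role. Groups were taken from the labels, with 1 library each, so no test between conditions was made. Covered bases were counted within 2 kb of the most upstream start of each protein-coding gene (Python 3.11.15, NumPy 2.4.6, pandas 2.3.3, SciPy 1.17.1, pysam 0.24.0, samtools 1.23.1, Matplotlib 3.10.9), and the counting was tested on simulated data. A call was at least 1 base. Covered length depends on depth and enrichment, which are unknown here, and does not measure occupancy.

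Genes were classed by symbol. The members, classes and rules were chosen with earlier results of these data known. Genes named were those with the most AP3 bases, the most WT bases and no AP3, or AP3 without WT, overall and within classes, and the deposition, Polycomb and pluripotency genes, except a few genes that are not reported here. Full accounts of the T-box, Sox, Hox, Gata and Wnt genes, and the comparison of the upstream with the downstream side, were added after their values were seen. Of the gene models, 140 repeat a symbol, and 3789 genes (17.0%) have another start within 4 kb, so that windows can share regions. Alternatives were the 1e-12 lists, windows of 1 and 5 kb, any annotated start, a minimum of 100 bases, and leaving out shared windows or the X.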

Additional observations from a re-analysis of the deposited data

Results flagged for a closer look

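A list at a stricter threshold would be assumed to lie within the looser one. Here 635 genes had AP3 in the 1e-12 list and none in the 1e-9 list, and 413 genes had WT in the 1e-12 list alone. Of the 635 genes, 589 were WT genes, which is 6.68% of the 8813 WT genes counted as lacking AP3, and 78 lay on chromosomes 6 and 8. Their median AP3 coverage in the 1e-12 list was 150 bases. The longest were Htra4 on chromosome 8 with 2150 AP3 bases, Ccdc48 on chromosome 6 with 1225, Gpr84 with 1107, E230028L10Rik with 1050 and Inhbe with 1000. These genes count as having lost the call in the report. In the opposite direction, 36 genes with at least 500 AP3 bases in the 1e-9 list had none in the 1e-12 list, Odf3b and Tymp among them. How the lists came to differ was not tested.

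AP3 calls changed more between the lists than WT calls. The 1e-12 list kept AP3 at 3151 of 4649 genes (67.8%), and WT at 94.0% of WT genes. The AP3 share was 63.5% off chromosomes 6 and 8 and 83.4% on them. Off these chromosomes it was 65.3% (56.5 to 73.2) for developmental transcription factors, 58.5% (50.7 to 65.9) for signalling genes, 62.2% (56.8 to 67.3) for housekeeping genes and 75% (56.6 to 87.3) for chromatin and pluripotency genes.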

How the results depend on the processing

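The share of WT genes that kept AP3 was 33.0% over all chromosomes, 29.4% without chromosomes 6 and 8 and 59.9% on them, and AP3 covered 14.4% as many bases as WT. With the 1e-12 lists these were 28.0%, 24.1%, 56.3% and 11.8%. With WT at 1e-12 and AP3 at 1e-9, the first, the second and the last were 34%, 30.3% and 17.1%. The union of the lists gave 37.0%, 33.3%, 64.1% and 15.7%, and windows of 1 kb gave 31.3%, 27.7%, 57.3% and 14.6%. Windows of 5 kb gave shares of 36.5%, 32.8% and 64.0%, any annotated start gave 34.5% and 30.9% with 14.1% of the bases, and a minimum of 100 bases gave shares of 27.6%, 23.7% and 56.1%. The share on chromosomes 6 and 8 stayed above that elsewhere under each of these settings. The upstream over downstream ratio of signalling genes on chromosomes 6 and 8 turned from 0.772 to 1.02 with the 1e-12 lists, and the cause was not tested.

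No paired analysis was possible because each group has 1 library. Depth is unknown, so a gene without a call is not shown to lack the protein, and the 49 class intervals were not adjusted for their number. The difference in share from all WT genes kept its direction under 9 of 9 alternatives for the T-box, Sox, bHLH, protocadherin, olfactory receptor and histone classes, but the interval stayed apart in 7, 6, 5, 6, 9 and 4 of these.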
